A study of Mus musculus with 56 samples.

Results

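The genes described here are 8 markers and drivers of the mesenchymal state, chosen by name: the zinc-finger repressors Snai1 and Snai2, the zinc-finger homeobox repressors Zeb1 and Zeb2, the basic helix-loop-helix factor Twist1, the homeobox factor Prrx1, the cell adhesion protein Cdh2 (N-cadherin) and the intermediate filament protein Vim (vimentin). All 8 have a row among the 13451 genes of the sorted-cell table, 7 have one among the 12935 genes of the day 10 table, where Snai1 has no row, and all 8 have one among the 13861 genes of the fibroblast and iPSC table. RNA was sequenced from mouse embryonic fibroblasts that carry an Oct4-GFP reporter (OG2-MEFs) during reprogramming with Oct4, Sox2, Klf4 and Myc (OSKM). The sorted cells carried a doxycycline-inducible lentivirus that holds the 4 factors in 1 transcript, with rtTA, and received either a control shRNA (shLuci) or a Ctcf shRNA. They were grown in stem cell medium with doxycycline at 2 μg/ml and vitamin C. Cells were taken at day 0, as Thy1+, SSEA1-Thy1- (double-negative) and SSEA1+ cells at days 3, 6 and 9, and as Oct4-GFP+ cells at day 12. The day 10 libraries came from reprogramming cells given the factors by retrovirus, with a control (oecontrol), with CTCF overexpression (oeCTCF), or with CTCF overexpression and a Smarca5 shRNA (oeCTCF&shSmarca5). A further 4 day 10 samples, 2 with a control shRNA (shcontrol) and 2 with a Ctcf shRNA (shCTCF), enter only through a comparison table of the authors. Each group has 2 libraries, and 1 MEF and 1 iPSC library stand beside them. Ctcf, the protein varied, binds DNA at insulators and at the anchors of chromatin loops.

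Fibroblasts are mesenchymal cells, and pluripotent stem cells form tight epithelial colonies joined by Cdh1 (E-cadherin). Reprogramming of fibroblasts therefore passes through a mesenchymal-to-epithelial transition, the reverse of the epithelial-to-mesenchymal transition (EMT). Snai, Zeb and Twist factors are known as repressors of epithelial genes, and the Snai and Zeb proteins bind the E-box CAGGTG. Thy1 is a surface protein of fibroblasts, and SSEA1 is a carbohydrate antigen that appears on cells moving toward pluripotency.

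The promoters shown are that of Snai1, the member whose promoter holds this E-box, and those of Epcam and Crb3, epithelial genes of the list of SNAI and ZEB targets. Each spans 250 bases before to 50 bases after a transcription start, from RefSeq on GRCm38.p6, on the strand of the gene, which is the plus strand for all 3. Capitals mark the E-box CAGGTG or its reverse complement CACCTG.
Snai1, chr2:167537945-167538244: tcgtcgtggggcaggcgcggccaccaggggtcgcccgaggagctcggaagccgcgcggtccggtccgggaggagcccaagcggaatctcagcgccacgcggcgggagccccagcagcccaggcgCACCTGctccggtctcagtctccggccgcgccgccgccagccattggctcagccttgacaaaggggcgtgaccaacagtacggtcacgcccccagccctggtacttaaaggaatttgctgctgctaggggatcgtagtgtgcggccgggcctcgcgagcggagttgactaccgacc
Epcam, chr17:87635729-87636028: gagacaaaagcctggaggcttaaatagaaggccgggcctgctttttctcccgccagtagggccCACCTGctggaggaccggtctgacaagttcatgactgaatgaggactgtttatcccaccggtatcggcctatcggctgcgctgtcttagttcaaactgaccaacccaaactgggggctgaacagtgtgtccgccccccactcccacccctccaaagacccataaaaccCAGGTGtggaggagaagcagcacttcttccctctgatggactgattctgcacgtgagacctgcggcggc
Crb3, chr17:57061951-57062250: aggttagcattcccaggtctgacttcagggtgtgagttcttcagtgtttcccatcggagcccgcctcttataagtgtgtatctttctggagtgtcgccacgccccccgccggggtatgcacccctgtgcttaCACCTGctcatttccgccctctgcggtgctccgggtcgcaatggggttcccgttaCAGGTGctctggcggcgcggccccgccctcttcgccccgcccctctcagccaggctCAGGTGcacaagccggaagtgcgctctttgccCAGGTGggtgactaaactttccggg
The Snai1 promoter held 1 match, at position -126 from the start site. The Epcam promoter held 2 and this Crb3 promoter 4. Of the members, 5 genes with 8 promoters were in the table, and 1 of these 8 promoters held the E-box on either strand, against 20.2% of all 32851 promoters. Among 15 of the 24 listed epithelial targets, with 21 promoters, 17 promoters of 14 genes held it. These genes were listed as SNAI and ZEB targets, so this share is not independent of the choice of the list. Promoters of 1 gene can also share bases, as those of Crb3 do. The CTCF core motif, searched on either strand, was found in none of the members' 8 promoters and in 2.43% of all promoters. These are letter matches, not binding sites. Epcam (an epithelial adhesion protein) was listed at scores of 4 and 8 at day 0 and of 3557 and 3504 in day 12 GFP+ cells. Crb3, a protein of apical cell polarity, was at 0 in both day 0 libraries and at 178 and 146 at day 12.

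The genes lie apart in the genome (GRCm38, GENCODE M21). Snai1 is at chr2:167538195-167542814, Snai2 at chr16:14705852-14709385, Zeb1 at chr18:5591860-5775467 and Twist1 at chr12:33957671-33959829, all on the plus strand, and Vim is at chr2:13573927-13582826, also on the plus strand. Zeb2 at chr2:44983632-45117395, Prrx1 at chr1:163245119-163313710 and Cdh2 at chr18:16588877-16809246 are on the minus strand. Genes of the opposite strand overlap Zeb1 (Gm10125 and Gm16147), Zeb2 (Zeb2os, Gm27761, Gm27404 and Gm27645), Prrx1 (Gm20471) and Cdh2 (Gm15485). Genes of the same strand overlap Zeb1 (Gm22709), Zeb2 (Mir5129) and Prrx1 (Gm26523 and Gm37644). These overlaps are of whole gene spans, and shared exons were not looked for. The sources used here do not say whether counting used strand, so reads in bases shared with an opposite-strand partner may not be told apart.

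Values are scores, the authors' normalized and rounded measure, in which all 44 libraries of the sorted-cell table share a median of 500 and a maximum of 933110 over all rows. Library totals ran from 31777102 to 31798964 in that table and from 19465402 to 19479768 at day 10. A score thus follows a gene's rank in its library, true sequencing depth is unknown, and scores are compared within a gene and a table only. Ctcf itself was lower with its shRNA in all 11 populations, by -0.52 (log2) at day 0 to -1.81 in day 12 GFP+ cells. The labelled cell types were checked with marker lists. The fibroblast list includes Thy1, a marker used for sorting. The summed score of 10 fibroblast markers was 73872 to 81007 at day 0 and 13983 to 14767 in control day 12 GFP+ cells. That of 10 pluripotency markers was 40 to 44 at day 0, with Dppa4 and Lin28a at 0, and 47120 to 47804 at day 12. In bulk RNA, fewer cells that express a gene and less RNA per cell cannot be told apart.

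All 8 genes were lower in Oct4-GFP+ cells at day 12 than in fibroblasts at day 0 under the control shRNA, where 40.2% of all genes were lower. The falls ran from 3.13-fold for Zeb1 to 31.7-fold for Snai2. A call is an adjusted p below 0.05 in limma on log2(score + 1), adjusted over all genes, and SE is its standard error. Where libraries are said to be separate or not to overlap, the share of all genes without overlap was not counted.

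Snai2 (Slug) fell from 2336 and 2098 at day 0 to 83 and 57 at day 12. Its log2 fold change was -4.99 (SE 0.15, adjusted p = 8.7e-21). Snai1 (Snail) stood at 495 and 329 at day 0 and at 104 and 106 at day 12, a change of -1.93 (SE 0.27, adjusted p = 3.8e-07). The day 0 and day 12 libraries did not overlap for either gene.

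Zeb2, for which both day 0 libraries were high at 1768 and 1875, was at 120 and 81 at day 12. This was a log2 change of -4.19 (SE 0.15, adjusted p = 1.7e-19). Its relative Zeb1 was at 894 and 942, then at 278 and 308, a change of -1.65 (SE 0.12, adjusted p = 5.1e-13). In both genes all day 12 values were below all day 0 values.

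Twist1 went from 587 and 562 to 62 and 64 (log2 -3.17, SE 0.18, adjusted p = 4.3e-15). Prrx1, a homeobox factor of limb and craniofacial mesenchyme, went from 11451 and 10515 to 690 and 638 (log2 -4.05, SE 0.09, adjusted p = 2.8e-23). Cdh2, the cadherin that mesenchymal cells carry in place of Cdh1, went from 10896 and 9464 to 406 and 501 (log2 -4.49, SE 0.13, adjusted p = 3.2e-21). All 3 were lower at day 12 in both libraries. Vim, the filament protein of mesenchymal cells, was at 62308 and 58655 and then at 5947 and 5337 (log2 -3.42, SE 0.08, adjusted p = 6.2e-23). Cdh1 moved the other way, from 3 and 1 to 5992 and 6534.

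Markers of other cells moved along the same comparison. The 8 measured of 10 macrophage markers summed to 6721 to 8157 at day 0 and to 653 to 766 at day 12, and 7 of them were lower. The 8 smooth muscle markers summed to 94479 to 108818 at day 0 and to 2732 to 2847 at day 12, and all 8 were lower. No marker of either list was at 0 in these groups. Their part in the changes of the 8 genes was not tested.

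**Figure D1:**
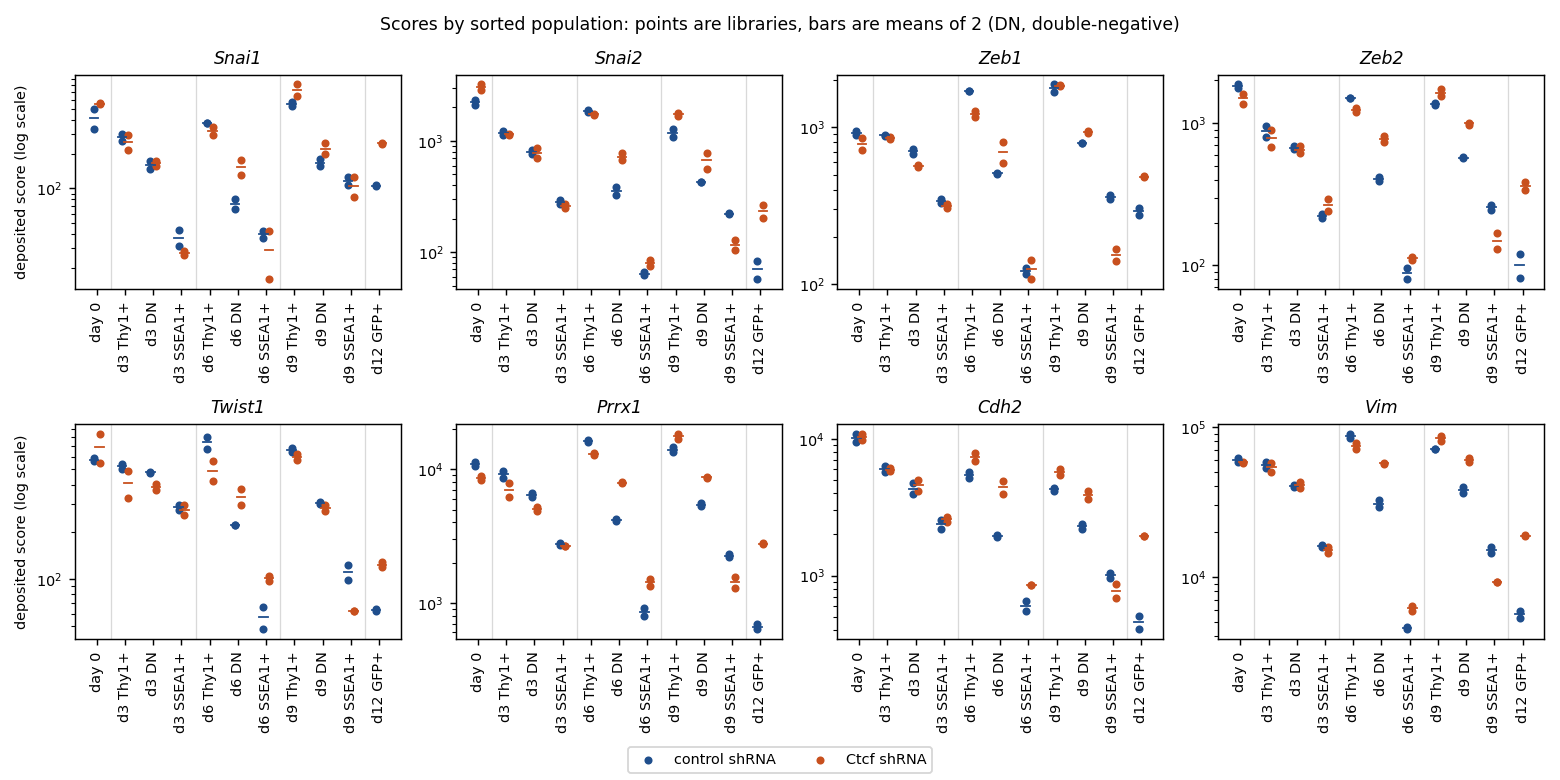
Scores (log axis) of the 8 genes in the 11 populations, with points for libraries and bars for the means of 2, control shRNA in blue and Ctcf shRNA in orange. In control cells every gene was lowest in SSEA1+ or GFP+ cells, and at day 12 all Ctcf shRNA points lay above the control points.

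In cells that kept Thy1 some of the genes fell and others rose. In Thy1+ cells 4 genes were lower at day 3 than at day 0 (Snai2, Zeb2, Prrx1 and Cdh2; 20.1% of all genes were lower). At day 6, 1 gene was lower (Cdh2; 32.0% of all genes) and 3 were higher (Zeb1, Prrx1 and Vim; 28.9%). At day 9, 3 were lower (Snai2, Zeb2 and Cdh2; 34.5%) and the same 3 as at day 6 were higher (30.3%). Cdh2 was called lower on all 3 days, at 5698 and 6390, then 5174 and 5750, then 4184 and 4404, with log2 changes of -0.75, -0.90 and -1.24 from day 0. Snai2 and Zeb2 were also below both day 0 libraries on each day, without a call at day 6. Zeb1 was at 1710 and 1688 at day 6 and at 1664 and 1875 at day 9 (log2 0.89 and 0.94, SE 0.12). Prrx1 reached 16490 and 15990, and Vim 89595 and 83689, at day 6. All 3 comparisons share the day 0 libraries. The fibroblast markers, none at 0, summed to 73872 to 81007 at day 0, 82587 to 88644 at day 3, 201552 to 210782 at day 6 and 297141 to 312094 at day 9, and the smooth muscle markers, none at 0, to 94479 to 108818, 49460 to 50746, 33973 to 35777 and 55943 to 57728. Their part was not tested. The day 3 fall of Prrx1 lost its call without day 0 library 1 or day 3 library 2 (adjusted p up to 0.27). At day 9 the call of Zeb2 was lost without day 0 library 2 or day 9 library 1 (up to 0.083) and that of Vim without day 0 library 2 or either day 9 library (up to 0.11).

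Between days 3 and 9 in Thy1+ cells, Snai1, Zeb1, Zeb2, Prrx1 and Vim rose (5 of 8; 24.5% of all genes were higher) and Cdh2 fell (31.7% were lower). Snai1 went from 261 and 298 to 524 and 572 (log2 0.97, SE 0.27, adjusted p = 0.0039). The log2 differences of Twist1 (0.34) and Snai2 (0.003) were not called. Over this step the fibroblast markers went from a sum of 82587 to 88644 to one of 297141 to 312094, with 10 of 10 higher and none at 0, and their part was not tested.

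In SSEA1+ cells all 8 genes were lower than at day 0 at day 3 (32.5% of all genes were lower), at day 6 (35.0%) and at day 9 (36.1%). Among SSEA1+ cells day 6 had the lowest mean for 7 of them, and day 3 for Snai1. Snai1 was already at 43 and 31 at day 3 and at 42 and 37 at day 6, a step of 0.11 (log2, adjusted p = 0.78). The other 7 fell between days 3 and 6 (25.0% of all genes were lower), by 1.32 (Zeb2) to 2.32 (Twist1) on the log2 scale. From day 6 to day 9 all 8 rose (22.5% of all genes were higher). Vim went from 4608 and 4488 to 15884 and 14498 (log2 1.74, SE 0.08), and Snai2 from 66 and 62 to 226 and 218 (log2 1.78, SE 0.15). Cdh2 had the smallest rise, from 550 and 655 to 953 and 1052 (log2 0.74, SE 0.13, adjusted p = 4.9e-05). Over the same step the 10 fibroblast markers went from a sum of 3731 to 3896 to one of 36593 to 37229, with none at 0, and their part in the rise was not tested.

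Day 12 GFP+ cells were lower than day 9 SSEA1+ cells in 7 of 8 genes (33.6% of all genes). Snai1 differed by -0.15 (log2, adjusted p = 0.66) and was not called. Prrx1 differed most, by -1.77 (SE 0.09). The call of Zeb1 (-0.31) was lost without day 12 library 1 or day 9 SSEA1+ library 1 (adjusted p up to 0.18). The fibroblast markers summed to 13983 to 14767 against 36593 to 37229 at day 9, with 10 of 10 lower, and the smooth muscle markers to 2732 to 2847 against 8282 to 8569, with 8 of 8 lower. None was at 0, and their part was not tested.

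**Figure D2:**
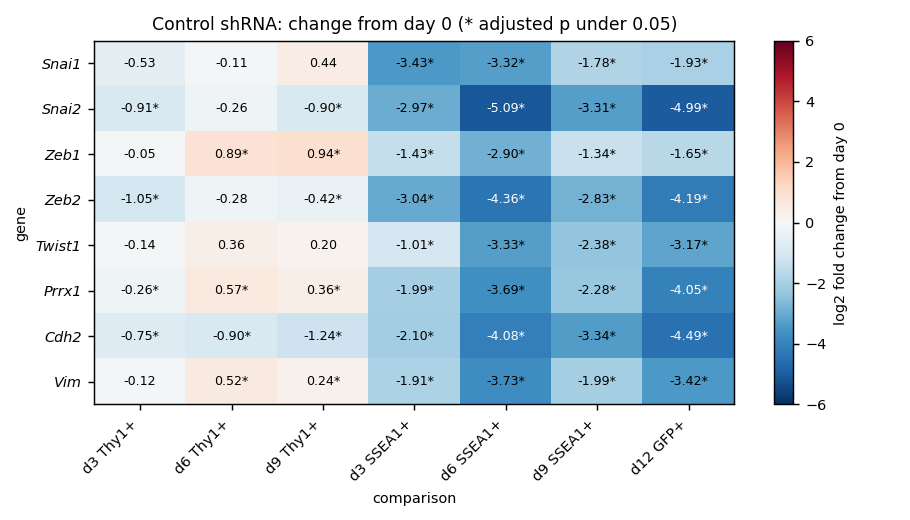
Log2 fold change from day 0 for each gene (rows) in control shRNA cells (columns), with asterisks at an adjusted p under 0.05. The Thy1+ columns run from -1.24 to 0.94, and every SSEA1+ and GFP+ entry is negative and called.

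Sorted cells of the same day differed by surface marker in all 8 genes. SSEA1+ cells were lower than Thy1+ cells in 8 of 8 at day 3 (28.8% of all genes were lower), day 6 (33.8%) and day 9 (30.0%). The gap was widest at day 6. There Snai2 was at 1800 and 1898 in Thy1+ and at 66 and 62 in SSEA1+ cells (log2 -4.83, SE 0.15), and Prrx1 and Vim each differed by -4.25. Cdh2 differed least, with 5174 and 5750 against 550 and 655 (log2 -3.18, SE 0.13). The libraries of the 2 populations did not overlap for any of the 8 genes on this day. Of all genes, 76.2% were called in either direction in this comparison, and the share without overlap was not counted. The fibroblast markers summed to 201552 to 210782 in Thy1+ and to 3731 to 3896 in SSEA1+ cells, with none at 0, and their part was not tested. Thy1, on which these cells were sorted, is in that list. At day 3 the gaps ran from -0.87 (Twist1) to -2.90 (Snai1). At day 9 they ran from -2.10 (Cdh2) to -2.63 (Prrx1).

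Double-negative cells stood between the other populations. They were lower than Thy1+ cells in 6 of 8 genes at day 3 (14.4% of all genes were lower), 8 of 8 at day 6 (29.3%) and 8 of 8 at day 9 (24.4%). They were higher than SSEA1+ cells in 8 of 8 at day 3 (20.9% of all genes were higher), 8 of 8 at day 6 (21.6%) and 7 of 8 at day 9 (15.5%). Vim at day 6 was at 89595 and 83689 in Thy1+, at 32306 and 29050 in double-negative and at 4608 and 4488 in SSEA1+ cells. Snai1 at day 9 was at 156 and 180 in double-negative and at 108 and 126 in SSEA1+ cells, a difference of 0.52 that was not called (adjusted p = 0.17). At day 3 the differences of Zeb2 (-0.38) and Twist1 (-0.13) from Thy1+ cells were not called. Of the 6 called there, Snai1 and Zeb1 lost the call without any 1 of the 4 libraries (adjusted p up to 0.17 and 0.16), Snai2 without library 1 of either population (up to 0.053) and Cdh2 without double-negative library 1 or Thy1+ library 2 (up to 0.12). Zeb2 gained a call without Thy1+ library 2 (adjusted p = 0.048). At day 6 the gap of Snai1 to SSEA1+ cells (0.87) lost its call without double-negative library 1 or SSEA1+ library 2 (up to 0.11).

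Over the 11 control populations the highest mean exceeded the lowest by 13.0-fold for Twist1 to 34.6-fold for Snai2. The order began with day 0 cells for Snai2, Zeb2 and Cdh2, with day 6 Thy1+ cells for Twist1, Prrx1 and Vim, and with day 9 Thy1+ cells for Snai1 and Zeb1. It ended with day 6 SSEA1+ cells for Snai2, Zeb1, Zeb2, Twist1 and Vim, with day 12 GFP+ cells for Prrx1 and Cdh2, and with day 3 SSEA1+ cells for Snai1. Neighbours in the order overlapped at some places. For Snai2, Zeb2 and Twist1 the last 2 populations, day 12 GFP+ and day 6 SSEA1+, overlapped. The first 2 overlapped for Zeb1 and Twist1 (Thy1+ cells of days 6 and 9). Prrx1 had no overlapping neighbours. For Cdh2 day 3 Thy1+ overlapped day 6 Thy1+, day 3 double-negative overlapped day 9 Thy1+, and day 3 SSEA1+ overlapped day 9 double-negative cells.

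As a description over these 11 population means, the 28 pairs of the 8 genes had Pearson r of 0.704 to 0.991 (median 0.940) on log2(score + 1). The points share a table, a normalization and a day 0 origin. With Cdh1 the 8 genes had r of -0.448 (Zeb1) to -0.836 (Cdh2). The 2 genes most like each member, among genes whose highest population mean reached the table's median, had r of at least 0.985. They were B4galt5 and Por for Snai1, Lrrc8c and Cpd for Snai2, Hecw2 and Man2a1 for Zeb1, and Plekho2 and Ereg for Zeb2. For Twist1 they were Mecom and Emp3, for Prrx1 Pde4b and Tom1l2, for Cdh2 Sh3kbp1 and Rab43, and for Vim Fbln5 and Wls. Over the 11 Ctcf shRNA populations, which the choice did not use, Vim and Fbln5 had an r of 0.993, Snai2 and Cpd 0.992, and Snai1 and B4galt5 0.895.

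Other genes of the transition moved with them at day 12. Of 22 measured of 25 other EMT transcription factors, 17 were lower and 4 higher than at day 0 (median log2 -2.17, against -0.007 for all genes, of which 40.2% were lower and 40.1% higher), led by Twist2 (-5.52), Hand2 (-4.73) and Ets1 (-4.48). All 24 mesenchymal filament, adhesion and matrix-degradation genes were lower (median -3.10), among them Tnc (-5.01) and S100a4 (-4.72). Of 24 epithelial genes known as SNAI and ZEB targets, 23 were higher and 1 lower (median 5.20), led by Cdh1 (11.11), Ap1m2 (9.08) and Epcam (9.04). All 11 measured of 14 epithelial regulators were higher (median 6.43), with the splicing factor Esrp1 at 9.98, Grhl2 at 8.88 and Ehf at 7.85. Cdh1 (3 and 1) and Epcam (4 and 8) had day 0 scores near 0, so their fold changes depend on the pseudocount.

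Lower Ctcf was followed by different effects on the 8 genes in different populations. The shRNA also lowered Ctcf unequally, least at day 0 and most at day 12. Ctcf was at 790 and 830 with the control against 520 and 616 at day 0. At day 12 it was at 2381 and 2441 against 698 and 674. The part of the unequal knockdown in the different effects was not tested. The F test for an unequal Ctcf shRNA effect over the 11 populations was called for 8 of 8 genes, and for 56.0% of all genes. At day 12 all 8 genes were higher with the Ctcf shRNA, where 24.6% of all genes were higher.

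In day 12 GFP+ cells Cdh2 was at 406 and 501 with the control and at 1949 and 1948 with the Ctcf shRNA, a log2 difference of 2.11 (SE 0.13, adjusted p = 7.9e-13). Prrx1 was at 690 and 638 against 2798 and 2756 (2.06, SE 0.09, adjusted p = 3.0e-15). Vim was at 5947 and 5337 against 19054 and 18606 (1.74, SE 0.08, adjusted p = 7.0e-15). In these 3 genes every Ctcf shRNA library was over 3 times the control libraries.

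Zeb2 was at 120 and 81 against 386 and 341 (1.87, SE 0.15, adjusted p = 6.7e-11). Zeb1 was at 278 and 308 against 486 and 484 (0.73, SE 0.12, adjusted p = 1.0e-05). Snai2 was at 83 and 57 against 204 and 267 (1.75, SE 0.15, adjusted p = 5.5e-10). Snai1 and Twist1 also had separate groups, with 104 and 106 against 244 and 252 (1.23, SE 0.27, adjusted p = 0.00059) and with 62 and 64 against 119 and 128 (0.96, SE 0.18, adjusted p = 8.1e-05). With the Ctcf shRNA all 8 were still below both day 0 libraries of either shRNA, and Cdh1 was at 6732 and 6738 against 5992 and 6534 (log2 0.11, adjusted p = 0.77).

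The change from day 0 to day 12 differed between the shRNAs in 7 of 8 genes (21.2% of all genes differed in this direction). The fall was smaller with the Ctcf shRNA by 2.41 (log2, SE 0.13) for Prrx1, 2.16 for Zeb2 and 2.08 for Cdh2. Snai1 differed by 0.78 (SE 0.39, adjusted p = 0.11). The call of Twist1 (0.72) was lost without library 1 of day 0 Ctcf shRNA, day 0 control or day 12 control, or library 2 of day 12 Ctcf shRNA (adjusted p up to 0.19).

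Mesenchymal lists moved along at day 12. All 24 mesenchymal filament, adhesion and matrix-degradation genes were higher with the Ctcf shRNA (median log2 1.42, against -0.07 for all genes), as were 14 of 22 other EMT transcription factors, while 3 were lower. Of the 24 epithelial targets, 7 were higher and 17 not called. Of all genes, 24.6% were higher and 24.7% lower in this comparison. The sum of the 10 fibroblast markers was 39172 to 39451 against 13983 to 14767 with the control, and 9 of 10 were higher. That of the 8 smooth muscle markers was 9941 to 9954 against 2732 to 2847. The 10 pluripotency markers summed to 26863 to 27006 against 47120 to 47804, and 2 (Fgf4 and Tet1) were lower. No marker of these lists was at 0 in either group, and their part in the differences of the 8 genes was not tested.

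**Figure D3:**
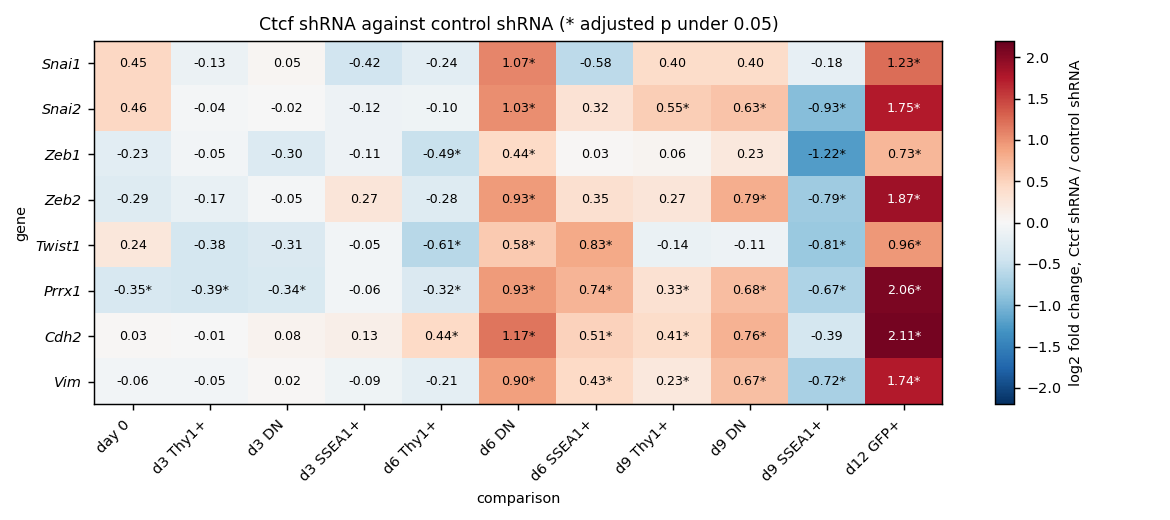
Log2 fold change with Ctcf shRNA against control shRNA for each gene (rows) in 11 populations (columns; DN, double-negative), with asterisks at an adjusted p under 0.05. Day 0 and day 3 columns hold few calls, day 6 DN and day 12 GFP+ are positive in all 8 genes, and day 9 SSEA1+ is negative in all 8, with 6 called.

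At day 0 the effect was called in 1 of 8 genes, Prrx1 (log2 -0.35; 3.75% of all genes were lower), and the other 7 lay between -0.29 (Zeb2) and 0.46 (Snai2). Prrx1 was also the 1 gene called at day 3, with -0.39 in Thy1+ (2.56% of all genes were lower) and -0.34 in double-negative cells (2.54%). In day 3 SSEA1+ cells 0 of 8 were called by limma (6.78% of all genes in either direction), none had an unadjusted p below 0.05, and values lay between -0.42 (Snai1) and 0.27 (Zeb2). Prrx1 stood at 11451 and 10515 against 8942 and 8324 with the Ctcf shRNA at day 0, at 9753 and 8662 against 7852 and 6260 in Thy1+ cells, and at 6605 and 6224 against 4848 and 5266 in double-negative cells. The groups did not overlap in any of the 3. The fibroblast markers in day 3 Thy1+ cells summed to 67464 to 77566 against 82587 to 88644, with none at 0, and the macrophage markers to 475 to 745, with C1qa at 0, against 1368 to 1502. At day 0 the macrophage markers summed to 9919 to 12276 against 6721 to 8157, with none at 0, and the part of these markers was not tested. Without 1 library the call was lost at day 0 for either control library or Ctcf shRNA library 2 (adjusted p up to 0.27), in day 3 Thy1+ cells for control library 1 or Ctcf shRNA library 2 (up to 0.34), and in day 3 double-negative cells for any of the 4 (up to 0.29). At day 0 Snai2 and Twist1 gained a call without Ctcf shRNA library 1 (adjusted p = 0.040 and 0.045).

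At day 6 the populations diverged. In double-negative cells all 8 genes were higher with the Ctcf shRNA (20.2% of all genes were higher). Cdh2 was at 1918 and 1994 against 3934 and 4939 (log2 1.17, SE 0.13), Vim at 32306 and 29050 against 57753 and 56691 (0.90, SE 0.08), and Snai2 at 326 and 384 against 672 and 775 (1.03, SE 0.15). The groups were separate for each. The fibroblast markers summed to 56142 to 56561 against 27756 to 28697 and the smooth muscle markers to 17292 to 17720 against 6247 to 6925, with none at 0, and their part was not tested. Without Ctcf shRNA library 2 the calls of Snai1 and Zeb1 were lost (adjusted p = 0.052 and 0.17), and that of Twist1 was lost without library 1 of either shRNA (up to 0.15).

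In day 6 SSEA1+ cells 4 genes were higher (Vim, Cdh2, Prrx1 and Twist1; 11.2% of all genes were higher). Prrx1 was at 792 and 914 against 1514 and 1340 (log2 0.74, SE 0.09). Snai1 (-0.58) and Zeb2 (0.35) were not called. The smooth muscle markers summed to 1705 to 2118 against 1225 to 1315, with 5 of 8 higher, and the fibroblast markers to 4260 to 4846 against 3731 to 3896. None was at 0, and their part was not tested. Without control library 1 the calls of Twist1 and Cdh2 were lost (adjusted p = 0.054 and 0.12), and without Ctcf shRNA library 2 Snai1 gained one (0.0012). In Thy1+ cells of the same day 3 genes were lower (Zeb1, Prrx1 and Twist1; 7.56% of all genes were lower) and Cdh2 was higher (6.83% were higher). Zeb1 was at 1710 and 1688 against 1157 and 1270 (log2 -0.49, SE 0.12). The fibroblast markers summed to 125377 to 126290 against 201552 to 210782 in the control, with 8 of 10 lower, and the smooth muscle markers to 44089 to 52012 against 33973 to 35777, with 5 of 8 higher. None was at 0, and their part was not tested. Without Ctcf shRNA library 1 Zeb1 lost its call (adjusted p = 0.070). Twist1 lost it without library 2 of either shRNA (up to 0.28), Prrx1 without any of the 4 (up to 0.13) and Cdh2 without any but Ctcf shRNA library 1 (up to 0.23). The difference between SSEA1+ and Thy1+ cells changed with the Ctcf shRNA in 3 of 8 genes at day 6 (3.21% of all genes in this direction), Twist1 (1.44), Prrx1 (1.06) and Vim (0.64), and Zeb1 gained a call without Ctcf shRNA SSEA1+ library 1 (adjusted p = 0.0078). At day 3 it changed in 0 of 8 genes by limma (0.201% of all genes in either direction), with values of -0.29 (Snai1) to 0.43 (Zeb2) and unadjusted p below 0.05 for Zeb2 and Prrx1.

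At day 9 the genes called were lower with the Ctcf shRNA in SSEA1+ cells and higher in the other 2 populations. Zeb1 and Twist1 were called in SSEA1+ cells only, and Twist1 was lower in all 3 populations. In SSEA1+ cells 6 genes were lower with the Ctcf shRNA (9.04% of all genes were lower). Zeb1 was at 372 and 352 against 142 and 168 (log2 -1.22, SE 0.12, adjusted p = 1.7e-08), Vim at 15884 and 14498 against 9211 and 9256 (-0.72, SE 0.08) and Snai2 at 226 and 218 against 129 and 104 (-0.93, SE 0.15). The groups were separate for these 3. Snai1 (-0.18) and Cdh2 (-0.39, adjusted p = 0.051) were not called. With a term for replicate number in the model, Cdh2 was called. Twist1 lost its call without control library 1 (adjusted p = 0.061), and Cdh2 gained one without Ctcf shRNA library 2 (0.020). The fibroblast markers summed to 12639 to 14544 against 36593 to 37229, with 9 of 10 lower and none at 0, and their part was not tested. Cdh1 was at 6638 and 6953 against 7505 and 8478 in these cells, and at 1008 and 948 against 300 and 284 in Thy1+ cells of the same day.

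In day 9 double-negative cells 5 genes were higher (Snai2, Zeb2, Prrx1, Cdh2 and Vim; 14.6% of all genes were higher), with Vim at 39577 and 36189 against 62032 and 58236 (log2 0.67, SE 0.08). The fibroblast markers summed to 84013 to 87971 against 93883 to 93932, with 5 of 10 lower and none at 0, and their part was not tested. Zeb1 (0.23), Snai1 (0.40) and Twist1 (-0.11) were not called, and the call of Snai2 was lost without Ctcf shRNA library 1 (adjusted p = 0.11). In Thy1+ cells 4 were higher (Snai2, Prrx1, Cdh2 and Vim; 7.51% of all genes were higher), by 0.23 (Vim, adjusted p = 0.0496) to 0.55 (Snai2). The smooth muscle markers summed to 73643 to 87042 against 55943 to 57728 in these Thy1+ cells, with 5 of 8 higher, the epithelial markers to 1430 to 1459 against 4071 to 4466, with 7 of 7 lower, and the fibroblast markers to 250026 to 290241 against 297141 to 312094, with 5 of 10 lower. None was at 0, and their part was not tested. These calls in Thy1+ cells were lost without library 2 of either shRNA for Snai2 (up to 0.14), without library 1 of either for Prrx1 (up to 0.16), and without any of the 4 for Cdh2 (up to 0.16) and Vim (up to 0.24). The SSEA1+ against Thy1+ difference was lower with the Ctcf shRNA in 6 of 8 genes (9.43% of all genes in this direction), from -0.80 (Cdh2) to -1.48 (Snai2). Snai1 (-0.58) and Twist1 (-0.67) were not called, and Twist1 gained a call without control SSEA1+ library 2 (adjusted p = 0.044).

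Averaged over the 11 populations, 5 genes were higher with the Ctcf shRNA (Cdh2 0.48, Snai2 0.32, Zeb2 0.26, Vim 0.26 and Prrx1 0.24; 26.2% of all genes were higher) and Zeb1 was lower (-0.08; 25.8% were lower). Each of the 5 had its largest difference at day 12, so these means do not describe every population. The call of Zeb1 was lost in 30 of the 44 fits that left out 1 library (adjusted p up to 0.0875), and Snai1 (0.19) gained one in 7.

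At day 10, more Ctcf was followed by no called change of these genes. With oeCTCF, Ctcf was at 5110 and 6132 against 1262 and 1234 in the controls. Of the 7 genes, 0 were called by limma with oeCTCF against control (0.0618% of all genes in either direction), 0 with the added Smarca5 shRNA against oeCTCF (0.0773%) and 0 with both against control (0.101%). Unadjusted p-values were below 0.05 for none of the 7, and for 786, 185 and 591 of all genes. The control columns differed from each other by less than sampling noise at the median gene and were counted as 1 sample, so these fits had 2 residual degrees of freedom. Ctcf itself had an adjusted p of 0.22 (log2 2.16).

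Vim was at 17805 in both control libraries, at 20814 in both oeCTCF libraries and at 20814 and 25732 with oeCTCF&shSmarca5. The difference with oeCTCF was 0.23 (log2, 95% interval -0.18 to 0.63). From the top, Vim ranked 86 and 85 in the controls and 67 in both oeCTCF libraries. Scores follow rank, so its equal scores do not measure the spread between replicates. Prrx1 was at 4230 and 4278 in the controls, 3434 and 3512 with oeCTCF and 3628 and 3163 with both (oeCTCF against control -0.29, interval -0.63 to 0.05). In both genes the oeCTCF libraries lay apart from the controls, Vim above and Prrx1 below.

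Cdh2 was at 426 and 443, 453 and 466, and 405 and 426 in the same order (oeCTCF against control 0.08, interval -0.26 to 0.42). Snai2 was at 392 and 380, 410 and 348, and 340 and 396 (-0.03, interval -0.53 to 0.47). Zeb1 was at 331 and 303, 344 and 440, and 302 and 430 (0.29, interval -0.49 to 1.08). The oeCTCF libraries overlapped the controls for Snai2, and lay just above them for Cdh2 and Zeb1. Zeb2 was at 195 and 200, 208 and 222, and 209 and 216 (0.12, interval -0.29 to 0.53). Twist1 was at 263 and 276, 285 and 328, and 191 and 326 (0.18, interval -0.80 to 1.16). Both genes had oeCTCF libraries above the controls, and both intervals include 0. Nothing is read from such separation, because the control columns were nearly equal and its share over all genes was not counted. With the Smarca5 shRNA added to oeCTCF, the 7 differences lay between -0.29 (Twist1) and 0.15 (Vim), and against control between -0.33 (Prrx1) and 0.38 (Vim).

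**Figure D4:**
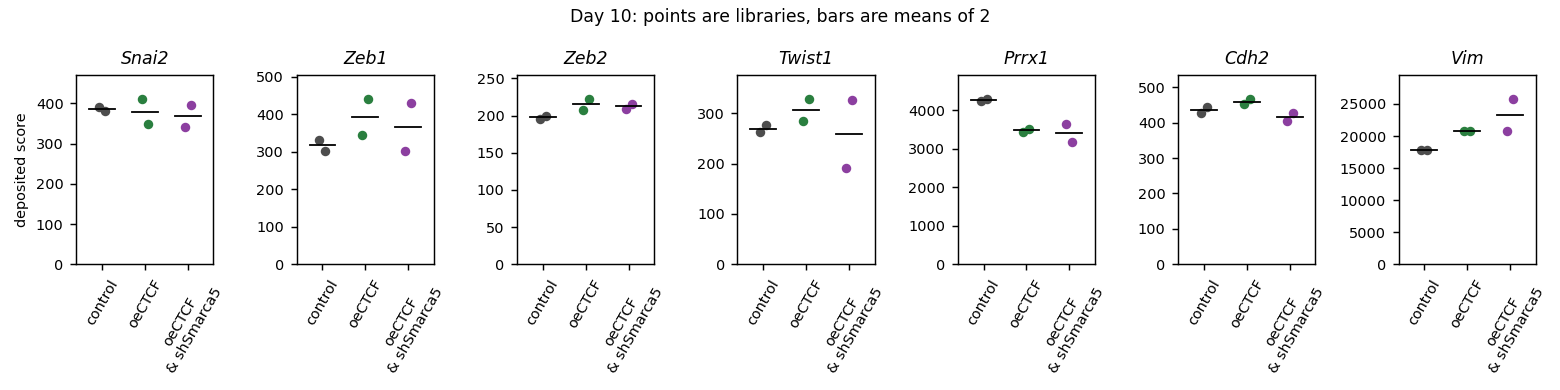
Day 10 scores of 7 genes in control, oeCTCF and oeCTCF&shSmarca5 libraries, with points for libraries, bars for means of 2 and axes from 0. Vim sits at 17805 in the controls and at 20814 or above elsewhere, and no difference was called.

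In the authors' deposited table of CTCF overexpression, Vim was higher in the condition with more Ctcf (log2 0.46, p = 0.00079), and the other 7 genes had p from 0.52 upward. In the authors' deposited table of the day 10 Ctcf shRNA, the condition with less Ctcf had less Twist1 (log2 -0.43, p = 2.1e-05) and Prrx1 (-0.16, p = 0.00028) and slightly more Vim (0.05, p = 0.0051). The other 5 genes had p from 0.48 upward in that deposited table by the authors. Ctcf itself differed by only -0.34 (log2) there. Cdh1 differed by -0.20 with an authors' p of 4.2e-14, so small p-values stood beside small changes. The share of all genes with such p-values was not counted.

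An MEF and an iPSC library, with 16593659 and 9912018 counts, give the end points. No test is possible with single libraries, and intervals are exact 95% Poisson intervals that cover counting error only. All 8 genes were higher in the MEF library, 6 of them by at least 8-fold on CPM (counts scaled to a common library total) plus 1, against 4.92% of all genes. Snai2 had 1259 counts against 11, or a CPM of 75.9 (71.7 to 80.2) against 1.11 (0.554 to 1.99). Zeb2 had 1952 against 61 counts, Twist1 731 against 29, and Prrx1 8533 against 305. The intervals of the 2 libraries were far apart for each.

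Cdh2 had 3889 against 205 counts, and Vim had 57661 against 3560, or a CPM of 3475 against 359. The 2 genes under 8-fold were Zeb1, with 1838 against 197 counts (5.35-fold), and Snai1, with 365 against 41 counts (4.48-fold). These 2 also had the smallest falls between day 0 and day 12 in the sorted cells. Cdh1 had 1 count in the MEF and 39133 in the iPSC library.

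**Figure D5:**
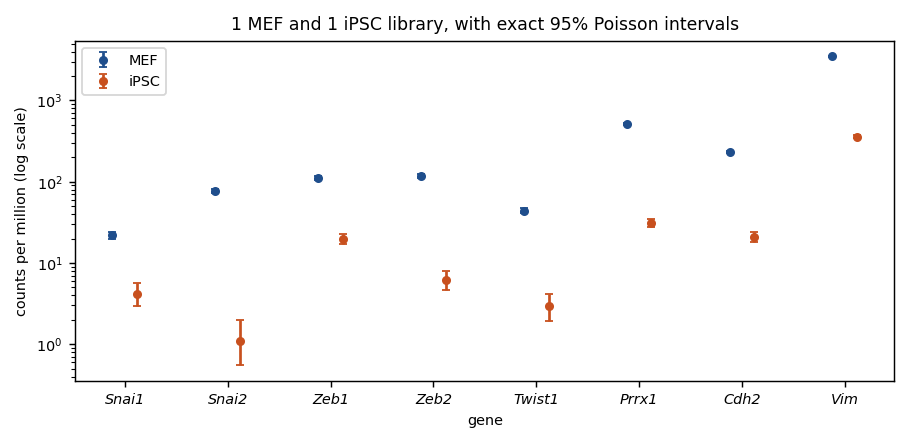
CPM (log axis) of the 8 genes in 1 MEF and 1 iPSC library, with exact 95% Poisson intervals. Every MEF point lies above its iPSC point, from 4.48-fold (Snai1) to 36.4-fold (Snai2) with 1 CPM added.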

How the data were processed

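The submitters' processing notes name Trim Galore, FastQC and RSEM, without versions, and GRCm38 for 54 samples and mm9 for 2. The score tables deposited by the authors hold normalized, rounded values with nearly the same distribution in every library, as read from the values. The normalization is not given in the sources used here. The MEF and iPSC table deposited by the authors holds raw counts. The authors' deposited comparison tables hold mean scores, log2 ratios and p-values without column names. Their direction is stated by the level of Ctcf, because the order of the conditions has no header.

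Each table was fitted as a whole with limma 3.58.1 (R 4.3.3), on log2(score + 1), with 1 mean for each group and the trend option. Genes entered where 2 or more libraries reached a score of 10. Residual degrees of freedom were 22 and 2, and p-values were adjusted by Benjamini-Hochberg over all genes. The code was tested on simulated data. Nothing in the labels ties replicates to separate cultures, so p-values measure the spread between these samples, which may be technical. Counts were turned into CPM with the library total. Alternatives were a pseudocount of 8, quantile normalization, a mean score of at least 100, no trend, a replicate block, control columns kept apart, other scalings and filters of the counts, and leaving out each library. The 2 day 10 control columns were averaged because the median over genes of their squared difference was 0.327 times what counting noise gives, against 1.6 to 12.6 times in the other 24 pairs. The mean ratio was 1.72, against 3.31 to 56.6. Replicate numbers did not meet the rule for pairing samples. Members and gene lists were chosen with earlier results of these data known. Named genes were the members, the 2 genes most like each, and the 3 largest changes per list at day 12 against day 0, of which 1 is not reported here. Genes of these lists named for the Ctcf shRNA were chosen after their values were seen. Of 56 samples, 4 have no column of their own.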

Additional observations from a re-analysis of the deposited data

Results flagged for a closer look

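The effect of the Ctcf shRNA differed among the 11 populations for each of the 8 genes, by the moderated F test of limma adjusted over all genes. That test was called for 56.0% of all genes. Ctcf itself was lowered unequally among the populations, and the part of this was not tested. F was 73.07 for Prrx1, 62.01 for Vim, 26.72 for Cdh2, 24.26 for Zeb2, 20.58 for Snai2, 19.37 for Zeb1, 10.4 for Twist1 and 4.553 for Snai1, with adjusted p from 1.47e-13 (Prrx1) to 0.00294 (Snai1).

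The change from day 0 to day 12 differed between the shRNAs, with a smaller fall under the Ctcf shRNA, by 2.411 (log2) for Prrx1, 2.161 for Zeb2, 2.078 for Cdh2, 1.8 for Vim, 1.287 for Snai2, 0.9617 for Zeb1 and 0.7166 for Twist1. The SSEA1+ against Thy1+ difference at day 6 was changed by 1.436 for Twist1, 1.064 for Prrx1 and 0.6427 for Vim. At day 9 it was changed in the other direction, by -1.482 for Snai2, -1.28 for Zeb1, -1.056 for Zeb2, -1.005 for Prrx1, -0.9506 for Vim and -0.7984 for Cdh2. Prrx1 and Vim were called on both days with opposite signs. Of all genes, 21.2% were called in the direction of the day 12 difference, 3.21% in that of day 6 and 9.43% in that of day 9.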

How the results depend on the processing

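Leaving out 1 library in turn gave 2036 values. Of these, 1874 kept their direction and their side of the threshold, 96 lost a call, 14 gained one and 52 turned direction, none of them a called value. The other alternatives gave 1606 values, of which 1590 kept both, 4 lost a call, 11 gained one and 1 turned. Quantile normalization lost the calls of Prrx1 in Thy1+ cells at day 3 against day 0 (adjusted p = 0.062), of Snai1 in day 6 double-negative against SSEA1+ cells (0.059), and of Prrx1 and Vim with the Ctcf shRNA in day 9 Thy1+ cells (0.053 and 0.14). In 33 results, none of them called, the log2 value turned direction without 1 library. Some of them are given here. The mean Ctcf shRNA effect on Twist1 ranged from -0.009942 to 0.04552. The Ctcf shRNA effect on Cdh2 ranged from -0.05464 to 0.2246 in day 3 double-negative and from -0.09488 to 0.07045 in day 3 Thy1+ cells. For Snai1 the Ctcf shRNA effect in SSEA1+ cells ranged from -1.25 to 0.08917 at day 6 and from -0.469 to 0.1103 at day 9, and the step from day 3 to day 6 in SSEA1+ cells from -0.1223 to 0.3371. Snai2 ranged from -0.113 to 0.1183 between days 3 and 9 in Thy1+ cells and from -0.1491 to 0.0868 with oeCTCF. Twist1 with the added Smarca5 shRNA ranged from -0.6759 to 0.09224. The cause was not tested.

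The rule for pairing, a correlation over 0.1 for every pair, was not met by same-numbered libraries, since over 231 pairs of groups the correlation of their deviations ran from -0.398 to 0.715 and exceeded it in 112. With the replicate block, 43 of 88 Ctcf shRNA effects were called against 42 without it, and the calls gained over all comparisons were Zeb2 in day 3 double-negative against Thy1+ cells, Cdh2 with the Ctcf shRNA in day 9 SSEA1+ cells (adjusted p = 0.004767, against 0.05105 without the block) and Zeb1 in the day 6 interaction (0.03921). Scores of one table share their distribution, so depth, total RNA and a shift of all genes together cannot be read from them, and 2 libraries a group limit what single calls show.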

Other observations

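Of all genes, 40.1% were higher and 40.2% lower at day 12 than at day 0 in control cells. Of 15 co-repressors of SNAI and ZEB factors, 12 were higher and 2 lower in this comparison (median log2 1.21), led by Sin3a (2.08), a scaffold of histone deacetylase complexes, the deacetylase Sirt1 (2.02) and the Polycomb subunit Suz12 (1.47). With the Ctcf shRNA at day 12, 9 of these 15 were lower and none higher, against 24.7% of all genes lower, led by Ctbp2 (-0.62), Hdac1 (-0.47) and Eed (-0.46). Of 12 measured of 13 genes for the stability of SNAI and TWIST proteins, 3 were higher and 6 lower at day 12 than at day 0, with the kinases Lats2 at -2.99 and Pak1 at -1.34. Nothing particular to these lists is read from the counts.

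Filament and cadherin genes went both ways in the same comparison, as all genes did. Of 10 measured of 12 intermediate filament and linker genes, 5 were higher and 5 lower, with Krt8 (an epithelial keratin) at 5.94, Lmna at -3.31 and Des at -3.27. Of 10 measured of 12 cadherins and catenins, 6 were higher and 3 lower, with Cdh1 at 11.11, Cdh11 (a mesenchymal cadherin) at -4.45 and Plekha7 at 3.98. With the Ctcf shRNA at day 12, Krt7 (2.00), Krt18 (1.90) and Krt8 (1.61) were higher beside Cdh11 (1.51), so epithelial keratins and a mesenchymal cadherin rose in the same libraries.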
